A study of Drosophila melanogaster with 15 samples.

Results

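The 76 genes described here carry a CG number as their symbol and fell short of the old control level in tumorous wing discs. They were higher in old control discs than in young ones, and lower in avl-RNAi discs of the same age as the old controls. They were chosen by the group means themselves: the mean log2 level of control discs had to be at least 0.7 higher at 116 h than at 92 h after egg deposition, avl-RNAi discs had to lie at least 0.5 below controls at 116 h, and the avl-RNAi difference from 116 h to 168 h had to be above -0.3. Of 11982 genes with a symbol of their own 5209 carried a CG number, and of these 129 met the first threshold and 76 the first and second. The remaining threshold removed none of the 76. The same thresholds were met by 156 genes that have a name.

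Levels were measured on 15 Affymetrix arrays of wing imaginal discs from Drosophila melanogaster larvae in the third instar, 3 arrays in each of 5 groups. All larvae were w- and elav-GAL80/+ in the w1118 background and were raised at 25 degrees. Controls were Rn-GAL4/+ and were sampled at 92 and 116 h, while avl-RNAi larvae carried the driver with the knockdown construct (Rn-GAL4,UAS Avl RNAi/+) and were sampled at 92, 116 and 168 h. The labels call control discs wild type and avl-RNAi discs neoplastic. Both genotypes carried the Rn-GAL4 driver, which acts in the distal part of the disc, and elav-GAL80, which blocks GAL4 in neurons, so the knockdown was directed at part of the tissue that was profiled. The avl gene, now Syx7, had no probe set of its own here, so the knockdown itself was not checked. No control discs at 168 h were analysed here, so genotype and age cannot be told apart where 168 h is set against control 116 h. Whole discs were profiled, and fewer cells of a type and less RNA per cell cannot be told apart.

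The wing disc is a larval epithelium that grows through the third instar and then, under rising ecdysone, switches on genes for sensory organs and eversion before the animal pupariates. The avl gene encodes the early endosomal syntaxin 7, and discs that lose it fail to sort membrane cargo, lose epithelial organisation and overgrow. Larvae with tumorous discs pupariate late, and their discs can be collected at ages when control animals have left the larval stage.

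Because the rule used 3 differences between group means, these differences are given below as descriptions without tests. The avl-RNAi arrays at 92 h did not enter the rule. In young discs members ranged from near background to abundant: 17 of 76 lay below the lowest array median (4.74) in control discs at 92 h, and 15 in 116 h avl-RNAi discs. In control discs at 116 h 15 exceeded a log2 level of 9, the highest being CG9628 at 10.96 ± 0.15 (SD, n = 3) and CG6287 at 10.85 ± 0.17. The median member was higher by 1.37 in control discs at 116 h than at 92 h (range 0.71 to 4.34), against -0.01 over all genes. The median difference of avl-RNAi from control discs at 116 h was -1.29 (range -3.93 to -0.53), against -0.02 over all genes. From 116 to 168 h the median difference in avl-RNAi discs was 1.04 (range -0.22 to 3.17). All 3 old control arrays lay above all young ones in 75 members, against 20% of all genes, and all 116 h avl-RNAi arrays lay below all old controls in 70, against 23.8%, counts that the rule largely fixes.

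**Figure D1:**
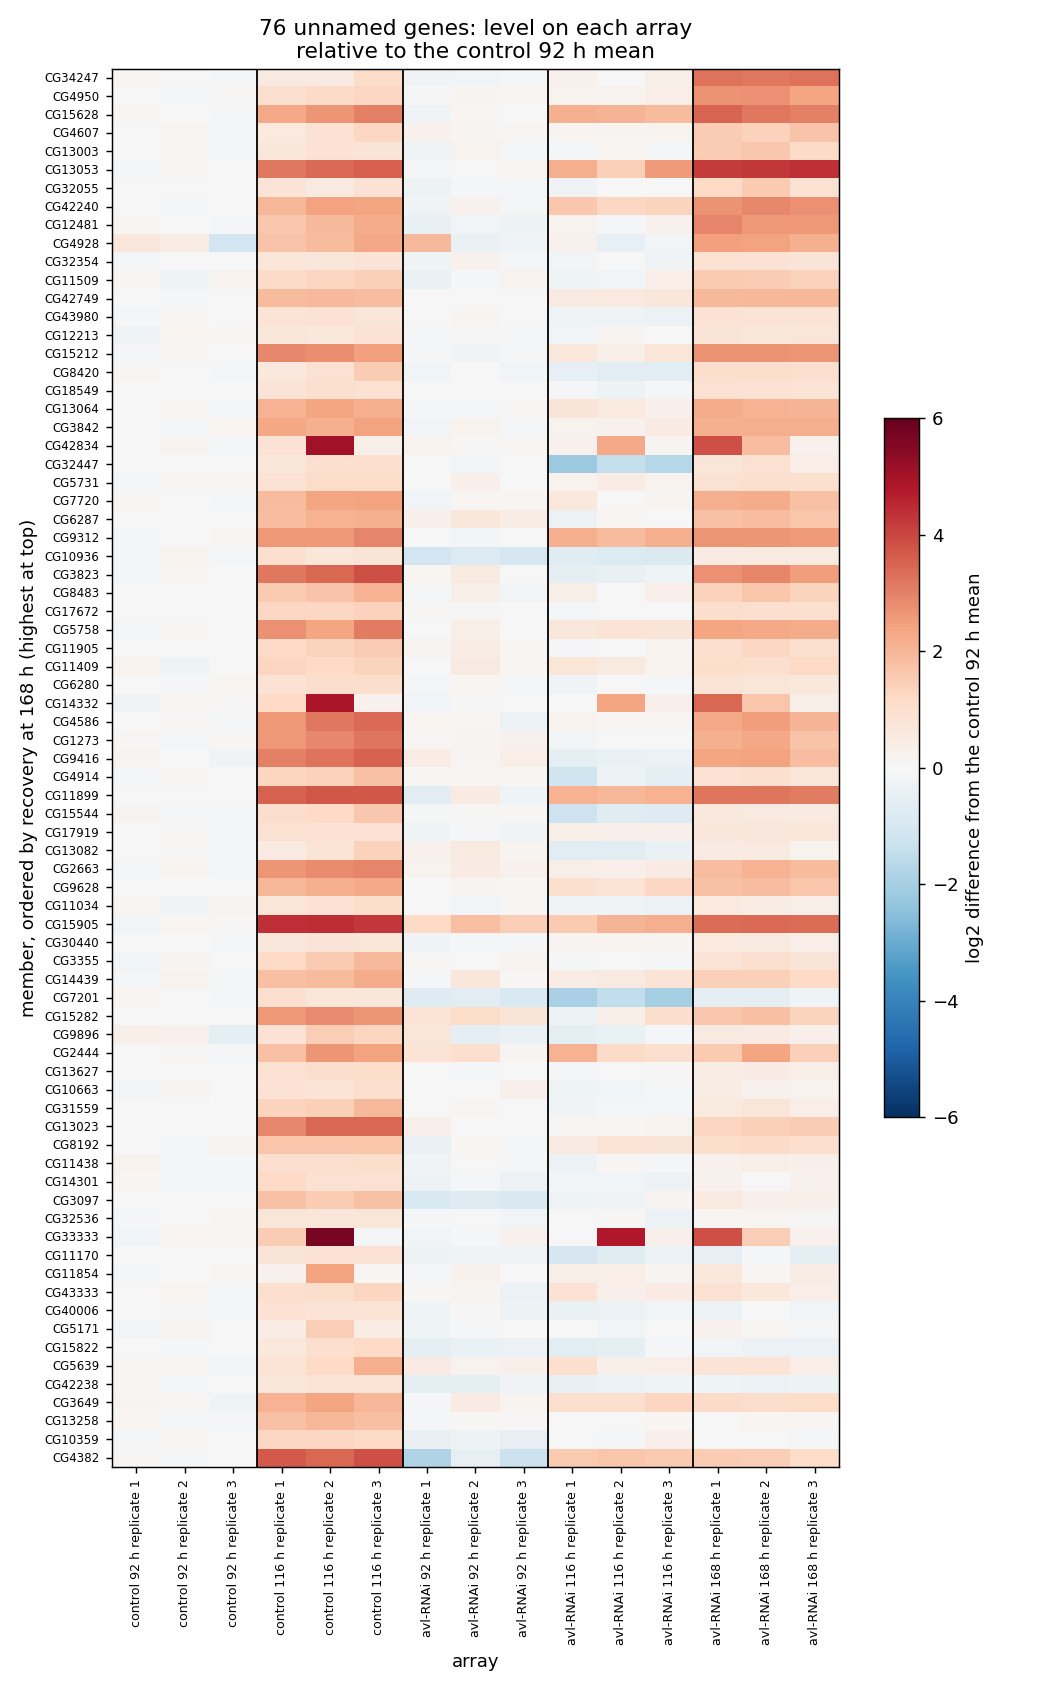
Each row is 1 of the 76 genes and each column 1 array, with colour giving the log2 difference from that gene's control 92 h mean. Control arrays at 116 h and avl-RNAi arrays at 168 h are mostly red, avl-RNAi arrays at 116 h are mixed, and CG33333, CG42834 and CG14332 stand out on single arrays.

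Leaving out single arrays cost 15 members their place, and the 5 that were lost without control 116 h replicate 2 are given first because 1 array stood far above the others in them. CG33333 read 6.67, 10.84 and 5.08 in control replicates 1 to 3 at 116 h. It read 5.19, 9.98 and 5.46 in 116 h avl-RNAi discs and 9.02, 6.62 and 5.41 at 168 h, against 5.0 to 5.44 on the arrays at 92 h. CG14332 and CG42834, which lie beside it in the genome, were high on the same arrays.

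CG14332 read 6.18, 9.91 and 5.23 in control discs at 116 h, 5.01, 7.35 and 5.31 in 116 h avl-RNAi discs, and 8.45, 6.65 and 5.33 at 168 h. CG42834 read 4.99, 9.16 and 4.46, then 4.36, 6.41 and 4.28, then 8.0, 5.97 and 4.38 in the same order. In these 3 genes avl-RNAi and control arrays of 116 h overlapped, as did avl-RNAi arrays of 116 and 168 h, and 1 array of each older group was well above the others. Old controls lay above young ones on all arrays in CG14332 and CG42834, though not in CG33333, and the same held for 168 h against 92 h avl-RNAi arrays. CG11854 read 4.64, 6.77 and 4.52 in control discs at 116 h, and CG5171 read 5.16, 6.16 and 5.11, again high on replicate 2 alone. Gut transcripts were also high on that array, with a mean of 6.54 over 19 measured gut genes against 4.94 and 4.84 on the other 2 control arrays of that age. On the other arrays where the 3 neighbours were high, the gut mean was 5.15 (avl-RNAi 116 h replicate 2, against 5.30 and 5.19) and 4.66 (avl-RNAi 168 h replicate 1, against 4.64 and 4.77). The gut mean was also high on control 92 h replicates 1 and 2 (6.71 and 6.70) and avl-RNAi 92 h replicate 1 (6.86). On those arrays CG11854 read 4.29, 4.41 and 4.31, and CG5171 read 4.52, 4.85 and 4.44. For CG11854 and CG5171 the part of gut transcripts was not tested.

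**Figure D2:**
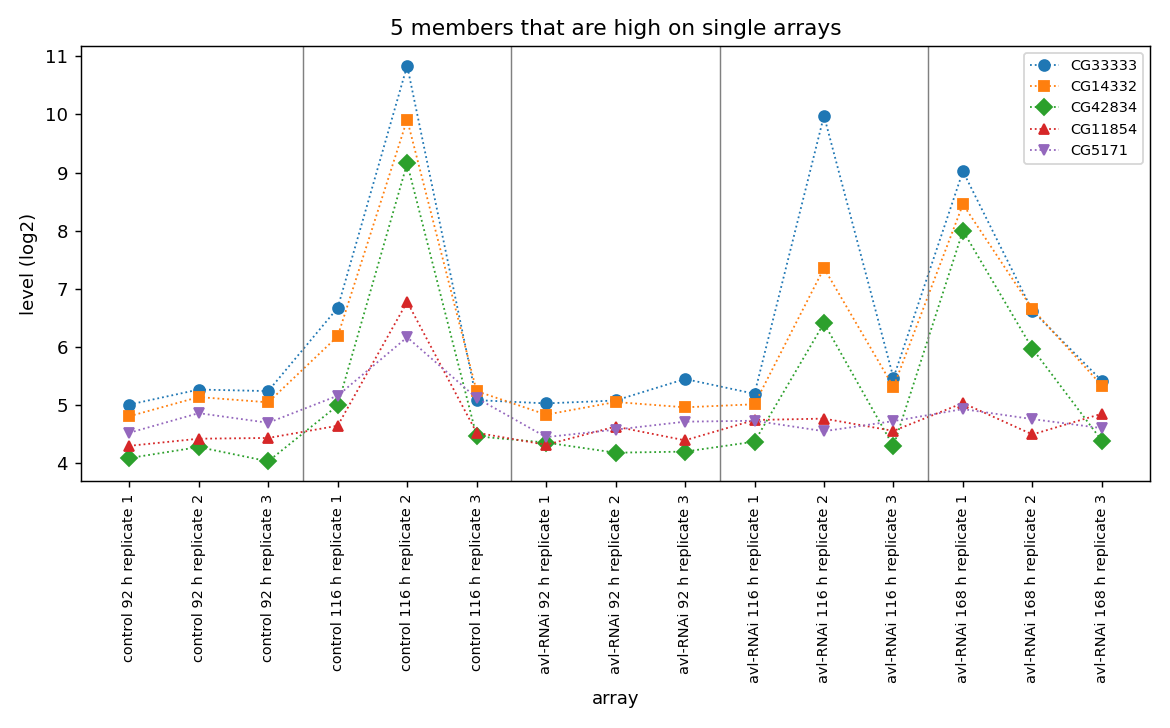
Log2 level of 5 genes on each of the 15 arrays. CG33333, CG14332 and CG42834 peak together on control 116 h replicate 2, avl-RNAi 116 h replicate 2 and avl-RNAi 168 h replicate 1, while CG11854 and CG5171 peak on control 116 h replicate 2 alone.

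Without control 116 h replicate 2 these 5 no longer met the rule and 71 members did. With each of the 15 arrays left out in turn, 61 of the 76 met the rule every time. Leaving out control 116 h replicate 3 lost 8 members, namely CG12213, CG13082, CG15628, CG32055, CG32354, CG34247, CG43333 and CG5639. CG5639 read 5.72, 6.08 and 7.06 in old controls, so that its deficit rested on replicate 3.

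The largest differences between old and young control discs were in CG15905, CG11899, CG4382, CG3823, CG13053, CG9416, CG13023, CG4586, CG1273 and CG2663. CG15905 read 5.07, 5.35 and 5.30 in control discs at 92 h, then 9.61, 9.65 and 9.47 at 116 h, a difference of 4.34 or 20.2-fold. In avl-RNAi discs it read 6.43, 7.05 and 6.70 at 92 h, 6.82, 7.26 and 7.41 at 116 h, then 8.60, 8.64 and 8.59 at 168 h. Its level in avl-RNAi discs thus overlapped between 92 and 116 h, and at 168 h every array lay above both earlier ages and below every control array at 116 h.

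CG3823 showed the largest deficit. It read 8.27, 8.56 and 9.0 in control discs at 116 h against 4.51, 4.67 and 4.86 in avl-RNAi discs, a difference of -3.93. At 168 h the avl-RNAi arrays read 7.89, 8.05 and 7.63, which is 9.01-fold above their own level at 116 h. In avl-RNAi discs at 92 h it read 5.25, 5.67 and 5.13, so the level at 116 h was lower than at 92 h on every array. CG9416 had the same course, with 9.03, 9.28 and 9.55 in old controls, 6.45, 6.16 and 6.39 in 92 h avl-RNAi discs, 5.49, 5.61 and 5.67 at 116 h, then 8.37, 8.42 and 7.87 at 168 h.

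In 3 further genes the mean of avl-RNAi discs at 116 h (3.94 in CG13023, 5.29 in CG4586 and 4.78 in CG1273) was close to that of young controls (3.81, 5.15 and 4.84). CG13023 read 6.68, 7.27 and 7.27 in old controls but 3.90, 3.92 and 4.01 in avl-RNAi discs of that age, below the median of every array, and 5.10, 5.23 and 5.36 at 168 h. CG4586 read 7.78, 8.33 and 8.55 in old controls, 5.34, 5.29 and 5.24 in 116 h avl-RNAi discs, and 7.44, 7.67 and 7.19 at 168 h. CG1273 read 7.45, 7.71 and 8.03, then 4.70, 4.83 and 4.80, then 6.99, 7.17 and 6.55. In all 3 the avl-RNAi arrays at 168 h lay between the groups, below every old control array.

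In CG11899 and CG13053 all avl-RNAi arrays of 116 h were above those of 92 h and below old controls. CG11899 read 6.77, 6.80 and 6.77 in young controls and 10.31, 10.50 and 10.53 in old ones, and 8.88, 8.76 and 8.85 in 116 h avl-RNAi discs. Its avl-RNAi arrays at 168 h read 10.002, 9.98 and 9.92, below every old control array by a narrow margin. CG13053 read 8.29, 8.55 and 8.69 in old controls, 7.29, 6.57 and 7.69 in 116 h avl-RNAi discs, and 9.32, 9.36 and 9.53 at 168 h, above every old control array. CG2663 did not share this step, since its avl-RNAi arrays read 5.24, 5.53 and 5.28 at 92 h and overlapped those of 116 h. It read 7.66, 7.88 and 7.95 in old controls, 5.38, 5.32 and 5.54 in 116 h avl-RNAi discs, then 6.88, 7.11 and 6.93 at 168 h.

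**Figure D3:**
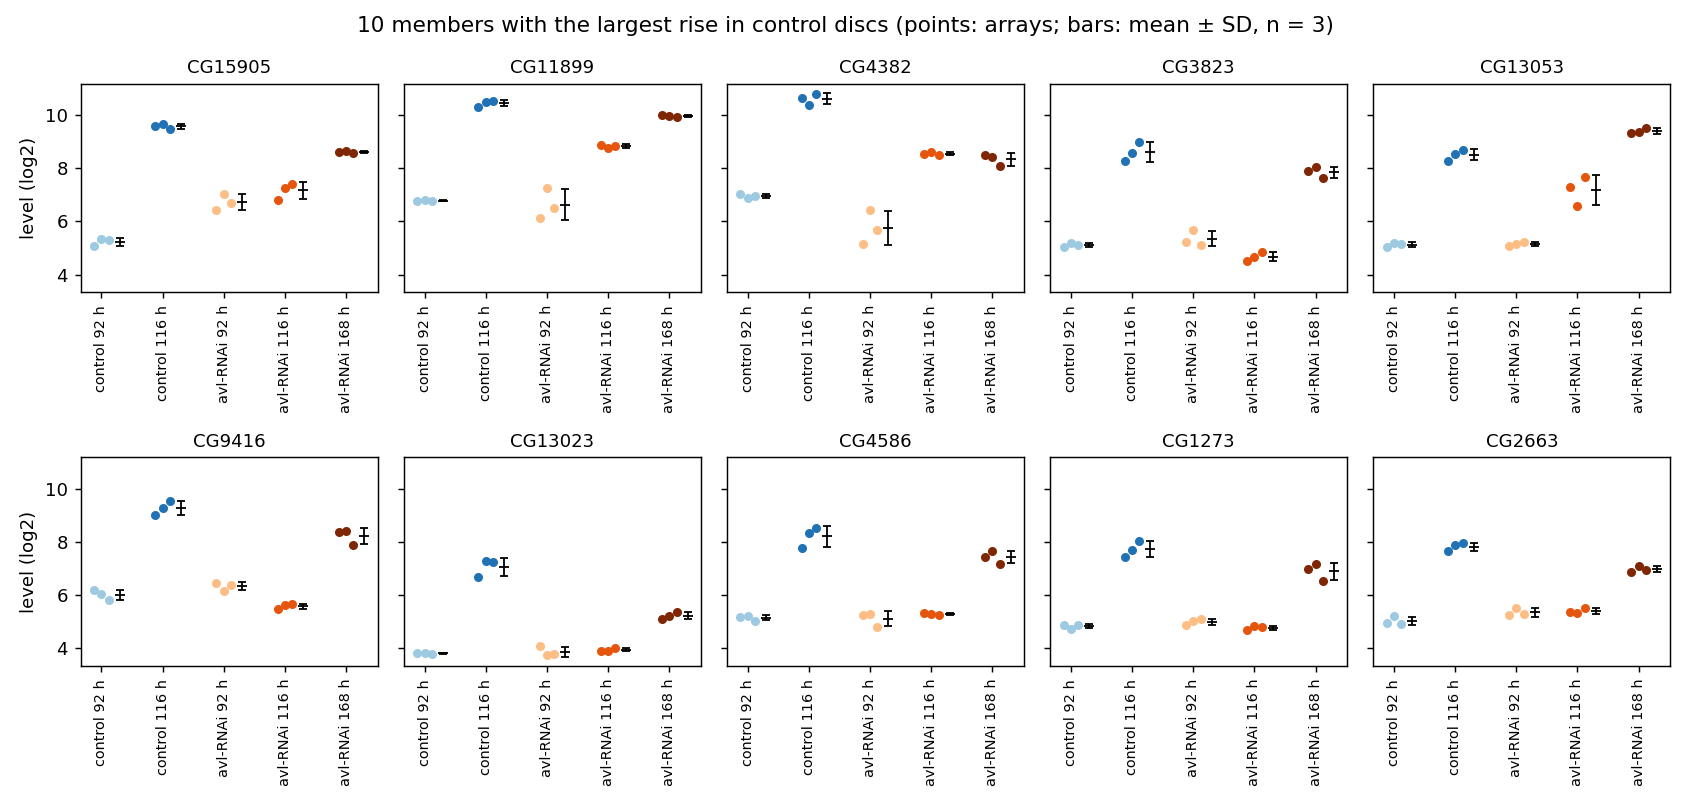
Log2 level of the 10 members with the largest difference between control discs at 116 and 92 h. Points are arrays and bars the mean ± SD of 3 arrays; CG4382 is the only 1 of the 10 whose avl-RNAi mean is lower at 168 h than at 116 h.

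Recovery at 168 h was expressed as the gain of avl-RNAi discs from 116 to 168 h in percent of their deficit against control at 116 h. The gain entered the rule only through its lower bound of -0.3. Over the 76 members the median recovery was 71.1% (quartiles 41.8% and 94.7%), and it was 71.2% over the 71 members that met the rule without control 116 h replicate 2. For the 156 named genes under the same thresholds it was 72.3% (quartiles 36.1% and 93.8%). The lower bound had taken 12 of 168 named genes out of that set, and 0 of the 76 CG genes. The SD of a member's recovery over its 3 arrays at 168 h had a median of 8.38 percentage points and ranged from 0.963 to 282. The largest belonged to CG33333, and among the 71 members the highest was 58.0, for CG2444. This SD leaves out the error of the groups at 116 h.

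Full or more than full recovery was seen in 15 members, from 75% to under 100% in 20, from 50% to under 75% in 17, from 25% to under 50% in 11, from 0% to under 25% in 11 and below 0% in 2. The avl-RNAi arrays at 168 h lay below all 3 old control arrays in 41 of 76 members, above them in 10, and overlapped in 25. Among all genes 23.2% lay below and 18.1% above in this comparison, but the members' deficit at 116 h was fixed by the rule. Without the 5 single-array members the counts were 40 below, 10 above and 21 overlapping. Compared with their own level at 92 h, avl-RNAi arrays at 168 h were all higher in 64 members (62 without the 5), against 23.6% of all genes. In the other 12 the arrays overlapped, and in 0 members all were lower, against 26.1% of all genes. The arrays at 168 h entered the rule through its lower bound, so these counts are not independent of the choice of members.

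**Figure D4:**
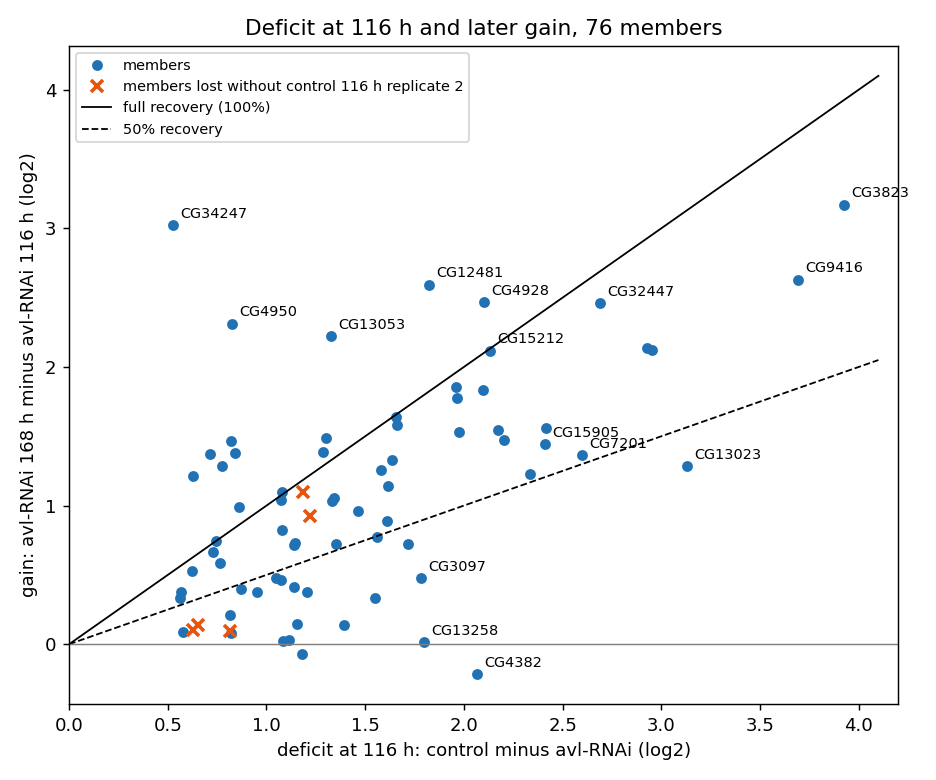
Deficit of avl-RNAi discs at 116 h against their gain from 116 to 168 h, both in log2 units, for 76 genes. Points on the solid line regained the whole deficit and those on the dashed line 50% of it; CG34247, CG4950 and CG13053 lie far above the solid line, and CG13258 and CG4382 lie near or below 0.

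The 10 members in which avl-RNAi discs at 168 h exceeded every old control array were CG34247, CG4950, CG4607, CG13003, CG13053, CG32055, CG42240, CG12481, CG32354 and CG42749. CG34247 read 6.07, 6.08 and 6.63 in old controls and 5.80, 5.53 and 5.88 in 116 h avl-RNAi discs, then 8.81, 8.70 and 8.77 at 168 h. Its deficit was the smallest of all members, at -0.53, so its recovery of 573% states mainly that the gain of 3.02 was far larger than the deficit. CG4950 read 4.85, 5.02 and 5.14 in old controls, 4.12, 4.13 and 4.29 in 116 h avl-RNAi discs, and 6.59, 6.62 and 6.26 at 168 h.

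CG12481 combined a clear deficit with an overshoot, reading 6.65, 7.01 and 7.25 in old controls, 5.24, 4.91 and 5.30 in 116 h avl-RNAi discs, and 7.98, 7.64 and 7.62 at 168 h. CG42240 read 7.06, 7.47 and 7.42, then 6.69, 6.32 and 6.41, then 7.79, 7.95 and 7.83. The overshoot of CG32354 (115.6 ± 7.7%, SD, n = 3) and CG42749 (107.7 ± 2.2%) was slight. CG15628 (193 ± 39.2%), CG4928 (117.4 ± 8.2%), CG11509 (114.5 ± 8.0%), CG43980 (102.2 ± 4.1%) and CG12213 (100.6 ± 7.0%) also had a mean recovery of 100% or more, but their arrays overlapped those of old controls.

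Members whose recovery came to between 75% and 100% included some of the most even ones. CG15212 read 8.27, 8.20 and 7.82 in old controls, 6.02, 5.74 and 6.13 in 116 h avl-RNAi discs, and 8.10, 8.08 and 8.05 at 168 h, a recovery of 99.2 ± 1.1%. CG32447, an abundant transcript, read 10.11, 10.44 and 10.45, then 7.24, 7.99 and 7.69, then 10.16, 10.33 and 9.80. It had stood at 9.39, 9.26 and 9.39 in 92 h avl-RNAi discs, so its level there dropped by 1.70 before it came back. CG8420 (98.9 ± 4.1%), CG18549 (96.9 ± 4.1%), CG13064 (95.2 ± 6.4%), CG3842 (94.5 ± 1.2%), CG5731 (91.2 ± 2.1%), CG7720 (90.4 ± 12.5%) and CG6287 (87.5 ± 5.0%) also had arrays at 168 h that overlapped those of old controls.

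The rest of this class were CG9312, CG10936, CG3823, CG8483, CG17672, CG5758, CG11905, CG11409 and CG6280, with the single-array genes CG42834 and CG14332. Recovery of the first 9 ranged from 76.4% in CG6280 to 84.4% in CG9312. In CG10936, CG3823, CG17672 and CG6280 every array at 168 h was still below every old control array.

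Recovery from 50% to under 75% was found for CG4586, CG1273, CG9416, CG4914, CG11899, CG15544, CG17919, CG13082, CG2663, CG9628, CG11034, CG15905, CG30440, CG3355, CG14439, CG7201 and CG15282. Every one of these except CG13082 had all avl-RNAi arrays at 168 h below all old control arrays. CG7201 differed from the others in its early course. It read 7.05, 6.76 and 6.71 in old controls and 6.15, 6.02 and 6.0 in young ones, but 5.30, 5.37 and 5.16 in 92 h avl-RNAi discs, 4.09, 4.57 and 4.07 at 116 h, then 5.53, 5.51 and 5.78 at 168 h. At no age did an avl-RNAi array reach the lowest young control array.

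Recovery was under 50% in 24 members, of which CG33333, CG11854 and CG5171 were single-array genes. In CG4382 the level was no higher at 168 h than at 116 h: old controls read 10.66, 10.40 and 10.80, and avl-RNAi discs read 8.53, 8.61 and 8.52 at 116 h, then 8.5, 8.44 and 8.07 at 168 h. CG10359 read 9.86, 9.85 and 9.83 in old controls, 8.58, 8.51 and 8.92 in 116 h avl-RNAi discs, and 8.61, 8.65 and 8.54 at 168 h. CG13258 was near the young control level on every avl-RNAi array, with 5.09, 4.95 and 4.95 in young and 6.77, 7.01 and 6.81 in old controls, but 4.91 to 5.14 on all 9 avl-RNAi arrays.

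CG3649 read 8.28, 8.54 and 8.18 in old controls, 7.16, 7.13 and 7.46 in 116 h avl-RNAi discs, and 7.32, 7.24 and 7.27 at 168 h, a recovery of 2.2 ± 3.5%. CG42238 (2.7 ± 4.4%), CG15822 (10.1 ± 7.9%), CG40006 (12.7 ± 14.9%) and CG11170 (21.5 ± 14.8%) likewise lay below old controls on every array at 168 h, as did CG43333 (15.9 ± 43.4%) and CG5639 (9.95 ± 27.7%) with far more scatter. Between 25% and 50% lay CG9896, CG2444, CG13627, CG10663, CG31559, CG13023, CG8192, CG11438, CG14301, CG3097 and CG32536. Only CG2444 among these 11 overlapped old controls at 168 h.

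How far avl-RNAi discs had moved by 116 h was compared with their own level at 92 h, whose arrays were not part of the rule, while the arrays at 116 h were chosen to lie below controls. All 3 arrays at 116 h were above all 3 at 92 h in 22 members, against 18.4% of all genes, and below them in 18, against 23.9%. In 36 members they overlapped. The median difference was 0.09, against -0.01 over all genes and 1.37 for the same age step in control discs. The largest steps up were in CG4382 (2.79), CG11899 (2.19), CG9312 (2.15), CG15628 (2.06) and CG13053 (2.03), and the largest steps down were in CG32447 (-1.70), CG7201 (-1.03), CG15544 (-0.93), CG13082 (-0.86), CG4914 (-0.78) and CG9416 (-0.74).

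At 92 h a difference between the genotypes was called in a minority of members, though in a larger share than of all genes. In limma's test over all genes, 9 of 76 members (11.8%) were called at an adjusted p under 0.05, 2 higher and 7 lower in avl-RNAi discs, against 4.48% of all genes (2.44% higher and 2.04% lower). The control arrays at 92 h are shared with the rule, which took genes that were lower on them than on old control arrays, so this comparison is not fully independent of the choice of members. The median difference was -0.01, the same as over all genes to 2 decimals, and 59 of 76 members lay within 0.25 of 0, a smaller share than the 91.0% of all genes.

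The largest fall at 92 h was that of CG4382 (-1.20 ± 0.23, SE, adjusted p = 0.00952), which read 7.03, 6.89 and 6.96 in controls and 5.17, 6.44 and 5.66 in avl-RNAi discs. CG10936 fell by 0.99 ± 0.10 (adjusted p = 6.33e-05), with 7.02, 7.36 and 7.07 in controls and 6.01, 6.32 and 6.15 in avl-RNAi discs. CG3097 showed -0.88 ± 0.11 (adjusted p = 0.000355), with 6.49, 6.55 and 6.55 against 5.62, 5.74 and 5.60. CG7201 showed -0.78 ± 0.13 (adjusted p = 0.00312). CG42238 (-0.44 ± 0.094), CG10359 (-0.41 ± 0.093) and CG17919 (-0.19 ± 0.045) fell less.

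Higher at 92 h were CG15905 (1.48 ± 0.15, 2.80-fold, adjusted p = 8.19e-05) and CG6287 (0.49 ± 0.12, adjusted p = 0.0362), which read 8.87, 8.83 and 8.79 in controls and 9.16, 9.50 and 9.30 in avl-RNAi discs. CG15282 read 6.57, 6.60 and 6.56 against 7.40, 7.69 and 7.35, with no overlap, but missed the threshold (0.90 ± 0.24, adjusted p = 0.0539). The groups did not overlap in 24 members, 10 above and 14 below control, against 11.3% and 12.6% of all genes. The calls of CG10936, CG15905 and CG3097 were kept in each of 25 alternatives. With the gut, muscle and fat body levels as covariates the other 6 calls ended. CG7201 then had a difference of -0.60 (adjusted p = 0.0524) and CG4382 one of -1.04 (adjusted p = 0.172), while the differences of CG6287 (0.63), CG10359 (-0.44), CG42238 (-0.44) and CG17919 (-0.17) had adjusted p-values from 0.147 to 0.326. With the arrays at 92 h alone 6 of the 9 calls were kept. CG4382 (-1.20, adjusted p = 0.0893), CG42238 (-0.44, adjusted p = 0.101) and CG17919 (-0.19, adjusted p = 0.146) were not called there, and CG17919 also missed the threshold under median centring (adjusted p = 0.0619). Calls of CG6287, CG10359, CG17919 and CG42238 each also ended when single arrays at 92 h were left out: CG6287 with control replicates 1, 2 or 3 or avl-RNAi replicates 2 or 3, CG10359 with control replicates 2 or 3 or avl-RNAi replicates 1 or 3, CG17919 with control replicates 1 or 2 or avl-RNAi replicates 1 or 3, and CG42238 with control replicates 1 or 3 or avl-RNAi replicates 1 or 2. CG6287 was also lost without avl-RNAi 168 h replicate 1.

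**Figure D5:**
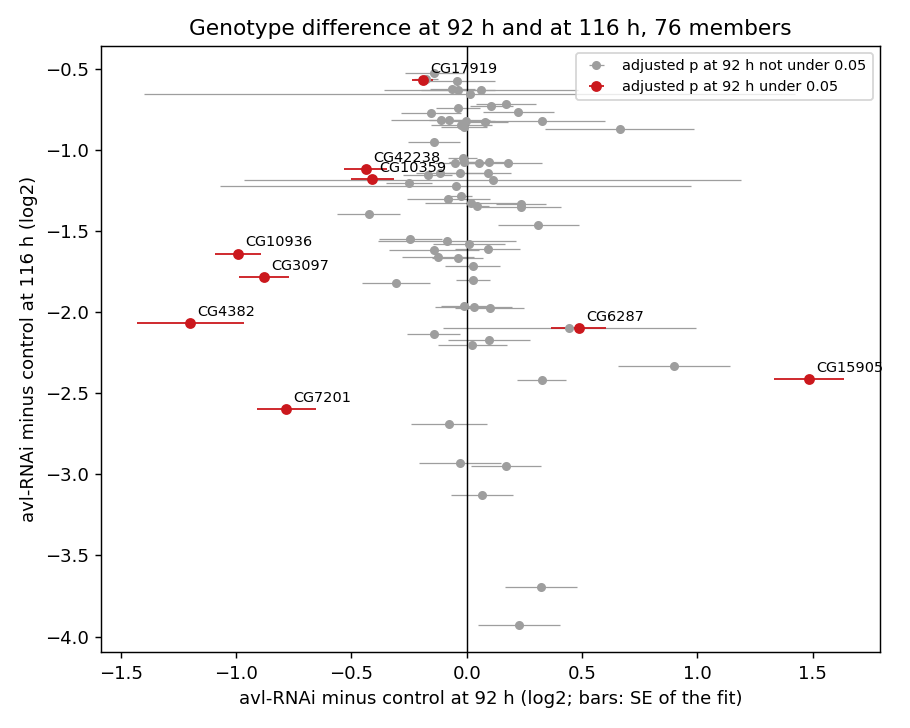
Difference between avl-RNAi and control discs at 92 h (with the SE of the fit) against that at 116 h, in log2 units. Most of the 76 genes sit near 0 at 92 h, and of the 9 that were called at 92 h only CG15905 and CG6287 are to the right of 0.

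Among the members, those with a larger control difference had a larger deficit at 116 h (Pearson r = 0.57, Spearman rho = 0.53, 76 genes) and ended higher above their own 92 h level at 168 h (r = 0.66, rho = 0.63). The size of the control difference and the percent recovery were nearly unrelated (r = -0.08, rho = 0.01). These values are across genes that share arrays and group means, and describe the set only.

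Some members are neighbours. In the RefSeq order of protein-coding genes 10 of 75 placed members (13.3%) had another member within 2 positions. Of all measured CG genes 2.67% had a member that near. They form CG13053 with CG34247, CG13023 with CG11905, CG3823 with CG42240 and CG3842, and the single-array trio CG33333, CG42834 and CG14332. CG15894, which lies between CG3823 and CG42240, was flat, from 4.77 to 4.85 in all 5 group means. Near CG13053 and CG34247 a stretch of 14 genes holds 4 members, the others being CG4950 and CG13064, and 13 of the 14 were measured. The stretch was drawn to begin and end on a member (CG13053 and CG13064). Of all measured CG genes 1.46% were members.

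The 4 members of that stretch were all higher in 168 h avl-RNAi discs than at 116 h, by 2.22 in CG13053, 3.02 in CG34247, 2.31 in CG4950 and 1.58 in CG13064. The rule used this difference, and it was positive in 74 of the 76 members. The 9 measured genes between them had other values. CG13067 went the opposite way, with group means of 10.25 and 6.97 in young and old controls, and 7.64 and 6.40 in avl-RNAi discs of 116 and 168 h. In the other 8 the avl-RNAi difference from 116 to 168 h lay between -0.21 (CG13069) and 0.13 (CG13050). Each measured neighbour was read from a probe set of its own. Whether a probe set also detects a neighbour of similar sequence was not examined.

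The reference tables give no function in words for any member. RefSeq lists 75 of the 76 as protein-coding, and CG11509 was not found there. Older synonyms in that table place a few in protein families. CG3355 (SP21), CG4914 (SP39) and CG10663 (SP30) carry names used for serine proteases, and their recovery came to 55.3%, 71.1% and 43.0%. CG4914 was the abundant one, reading 9.84, 9.93 and 10.31 in old controls, 7.34, 8.22 and 8.0 in 116 h avl-RNAi discs, and 9.42, 9.51 and 9.26 at 168 h, while CG10663 lay near the array medians in young discs. CG7720 (dSLC5A1) carries the name of a family of sodium-coupled solute transporters, and CG18549 (MFSD11) that of major facilitator transporters.

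CG18549 read 8.06, 8.26 and 8.20 in old controls, 7.16, 6.95 and 7.19 in 116 h avl-RNAi discs, and 8.18, 8.14 and 8.09 at 168 h. CG7720 read 7.02, 7.48 and 7.52, then 5.71, 5.12 and 5.29, then 7.28, 7.31 and 6.87, and both thus reached the range of old controls. CG11438 (LPP-like, PAP2, WUN-like) carries names of lipid phosphate phosphatases, the family of the wunen proteins, and recovered less, at 36.0 ± 5.1%, from 8.97, 8.96 and 9.02 in old controls to 8.20, 8.32 and 8.25 in 168 h avl-RNAi discs. CG2444 (DIGF-6) scattered widely, with 6.13, 7.01 and 6.80 in old controls, 6.44, 5.51 and 5.38 in 116 h avl-RNAi discs, and 5.96, 6.75 and 5.81 at 168 h.

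Named genes of the ecdysone response, the hormone system that times disc maturation, were set beside the members. The list held 30 genes, of which 22 were measured, and Eip74EF and Eip75B were not among the 22. Of 22 measured genes on this list 11 rose and 1 fell in control discs from 92 to 116 h, against 13.2% and 13.8% of all genes. At 116 h 3 were higher and 8 lower in avl-RNAi than in control discs, against 12.6% and 19.1%, and from 116 to 168 h 10 rose and 2 fell in avl-RNAi discs, against 15.5% and 11.5%. The list's median differences in these comparisons were 0.54, -0.12 and 0.46, against -0.01, -0.02 and -0.01 over all genes. The zinc finger gene br, a transcription factor of the early ecdysone response, met the members' thresholds, with group means of 12.27 in old controls, 11.36 in 116 h avl-RNAi discs and 12.23 at 168 h. ImpE2, an ecdysone-inducible gene of imaginal discs, stood at 13.37, 7.85 and 12.38 in the same order. Blimp-1, another transcription factor gene, stood at 7.63, 5.07 and 7.04, and Sb, which encodes a transmembrane protease needed for disc eversion, at 8.11, 6.13 and 7.12. In all, 8 of the 22 met these thresholds, the others being Eip78C, Hr3, ImpE1 and ImpE3. Among all genes with a name 2.30% met them. Hr3 was called in none of the 3 differences (SE 0.43). Its group means, from 3.36 to 4.22, lay below the lowest array median (4.74). ImpE1 was not called for its deficit at 116 h (-0.67 ± 0.27, SE) or its later gain (0.76 ± 0.27). The 3 list genes that were higher than control at 116 h had other courses. The nuclear receptor gene ftz-f1 fell in controls with age (-1.57 ± 0.11, SE) and was higher in avl-RNAi discs of 116 h (2.05 ± 0.11, adjusted p = 1.38e-08). ImpL2, which encodes a secreted insulin-binding protein, was higher by 1.52 ± 0.20 (adjusted p = 6.2e-05), and the transporter gene E23 by 0.62 ± 0.15 (adjusted p = 0.00661).

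Of 5 members with several probe sets, the 6 further probe sets agreed only in part. The second probe set of CG42749 met all thresholds (1.15 in controls with age, -0.75 against control at 116 h and 0.78 from 116 to 168 h). Those of CG11905 moved the same way with smaller sizes (0.38 and 0.62, then -0.43 and -0.68). The second probe sets of CG13023, CG15628 and CG7720 were flat, between -0.25 and 0.13 in these 3 differences, so the pattern of these genes rests on 1 probe set. Their means over all arrays were low, at 3.96, 4.97 and 3.56. Those of CG13023 and CG7720 lay below the lowest array median (4.74), where a flat course can mean that little was detected. Of the probe sets used 8 have names ending in s_at, the type that can match more than 1 transcript.

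Nearest inside the thresholds were CG32055, CG32536 and CG32354 for the control difference (0.71, 0.72 and 0.72), and CG34247, CG30440 and CG17919 for the deficit (-0.53, -0.56 and -0.57). Just outside lay CG8031, CG31051 and CG13004 (0.69, 0.69 and 0.69), and CG31637, CG12024 and CG6357 (-0.49, -0.49 and -0.48). For the change from 116 to 168 h the members nearest the bound were CG4382 (-0.22), CG10359 (-0.07) and CG13258 (0.01), and no gene lay outside.

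Of the wing disc regulators listed as markers 19 of 23 were measured, with array means between 8.29 and 8.84 and no gene below the array medians in any group. Some of them moved in the same direction as the members: 10 of 19 rose and 0 fell in controls with age, 11 were lower and 0 higher in 116 h avl-RNAi discs, and 8 rose and 2 fell from 116 to 168 h. Muscle transcripts moved the other way, as 11 of 12 fell in controls with age, 9 were higher in 116 h avl-RNAi discs, and 9 fell from 116 to 168 h. Among all genes 13.2% rose and 13.8% fell in controls with age. In avl-RNAi discs 12.6% of all genes were higher and 19.1% lower than control at 116 h, and 15.5% rose and 11.5% fell from 116 to 168 h. The mean of 12 measured muscle genes was 7.84 ± 0.22 (SD, n = 3) and 6.38 ± 0.39 in controls at 92 and 116 h, and 8.49 ± 0.23, 7.34 ± 0.28 and 5.42 ± 0.17 in avl-RNAi discs at 92, 116 and 168 h. The mean of the 4 measured fat body genes ranged from 7.99 to 11.24 over arrays and that of the gut genes from 4.64 to 6.86, with control 92 h replicate 3 at 5.01 against 6.71 and 6.70 in the other 2. Haemocyte means lay between 6.43 and 7.60, tracheal means between 9.03 and 9.48, and neuron and glia means between 5.81 and 6.39. Of the fat body genes 3 fell from 116 to 168 h. The part of these tissues in the members' values was not tested beyond the covariate fit at 92 h.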

How the data were processed

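Biotinylated cRNA made from 200 ng RNA per sample was measured on Affymetrix arrays, per the labels' protocols. The authors deposited log2 values for 18952 probe sets, with a mean of 6.01 on every array. That the scale is log2 was read from its range (2.81 to 14.51). Partek and limma stand in the submitters' processing notes; background correction and normalization are not given in the sources used here. Values were used as deposited, and the number of arrays limits precision.

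Of the probe sets 13647 had 1 symbol, 402 several and 4903 none; the last 2 kinds were left out. Symbols were updated through gene identifiers for 13544 and kept for 103. A gene took its probe set with the highest mean. All 15 arrays were fitted with 5 group means (lmFit and eBayes of limma 3.58.1, R 4.3.3; 10 residual degrees of freedom; 2-sided; Benjamini-Hochberg over 11982 genes; called at adjusted p under 0.05). The fit was tested on simulated data.

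The members, lists and rule were chosen with earlier results of these data known. Named were the 10 members with the largest control difference, the 10 with the largest deficit, the 8 with the highest and the 8 with the lowest recovery, the 6 with the smallest p at 92 h, the 3 on either side of each threshold, and those with a neighbouring member or a family synonym; other members were added after their values were seen, so that all are accounted for. Groups came from the labels, which state separate collections; p-values measure the spread between these. Alternatives were other normalizations, probe set rules, fits, thresholds, and leaving out arrays. Promoter motifs were not examined, as no sequence was used here.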

Additional observations from a re-analysis of the deposited data

Results flagged for a closer look

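CG15905 and CG6287, the 2 members called higher in avl-RNAi discs at 92 h, differed from control in opposite directions at the 2 ages. All 3 avl-RNAi arrays lay above all 3 controls at 92 h and below them at 116 h. For CG15905 the difference was 1.48 at 92 h and -2.41 at 116 h. For CG6287 the values were 0.49 and -2.10. Whether the effect changed with age was not tested, because the rule that chose these genes used the arrays at 116 h. In avl-RNAi discs CG6287 went from 9.16, 9.50 and 9.30 at 92 h to 8.48, 8.95 and 8.84 at 116 h and 10.60, 10.69 and 10.48 at 168 h. Its call at 92 h ended in 8 of the 25 alternatives. The same order of arrays at both ages held in CG15282, CG2663, CG13082, CG11905, CG1273 and CG4914, which were not called at 92 h.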

How the results depend on the processing

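The rule chose 53 to 88 genes over 23 alternatives against 76, and 70 to 88 with single arrays left out; the 53 came from thresholds stricter by 0.2. Median recovery of the members (71.1%) ranged from 67.5% to 75.01% with single arrays left out and over 21 alternatives, including 2 chosen after seeing the data. The members' median difference at 92 h (-0.01) ranged from -0.02 to 0.04 over 19 alternatives, single arrays left out included. The 9 members called at 92 h became 6 to 10 with single arrays left out. They became 5 without control 92 h replicate 3 and control 116 h replicate 2 together, where fewer arrays enter, 5 at adjusted p under 0.01, and 3 when the means of 3 tissue lists (gut, muscle, fat body) were covariates; the cause of the last was not tested. The replicate number as a block gave 9, the same genes. Replicate numbers were not taken to pair samples, since 30 correlations of deviations from group means, each for 1 number in a pair of groups, ran from -0.41 to 0.50, with 9 over 0.1. Between genotypes of the same age they were 0.50, -0.02 and 0.38 at 92 h and 0.12, 0.09 and 0.18 at 116 h. A pairing there is thus not excluded, and the block fit allows for it.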
